A study of Mus musculus with 10 samples.

Results

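The set described here is the MHC class I molecules of the mouse and the machinery that makes and loads their peptides, 32 genes of the 36528 in the deposited tables. The genes were taken from a list of names: 10 heavy chains of the H2 family, the light chain B2m, the class I-like molecules Mr1 and Cd1d1, 5 proteasome genes, 7 transport and loading genes, 5 trimming or translocation genes, the transactivator Nlrc5, and H2-Ke6. H2-Ke6 lies in the MHC region but encodes a hydroxysteroid dehydrogenase and not a class I molecule. All 32 had counts and all 32 passed the filter on low counts.

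The libraries were made from polyadenylated RNA of purified tumour-associated macrophages of C57Bl/6 mice bearing MC-38 tumours, a mouse colon carcinoma line. In 5 libraries the mice had received anti-MerTK, an antibody to a receptor tyrosine kinase with which macrophages bind and engulf dying cells, and in the other 5 anti-gp120, an antibody to a viral envelope protein taken here as the control. Macrophages were collected 24 hours after treatment. The labels name no dose, age, sex, gate or batch, and they do not say whether each library is a separate mouse, so p-values here measure only the spread between these libraries, which may be technical.

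MHC class I molecules show peptides from inside the cell to CD8 T cells. The proteasome cuts proteins into peptides, TAP carries them into the endoplasmic reticulum, peptidases there trim them, and the loading complex around tapasin fits them to a heavy chain paired with B2m. Interferons raise the transcription of many of these genes through factors that bind their promoters, and NLRC5 adds to it at class I promoters. Classical heavy chains (H2-K and H2-D) present peptides to CD8 T cells, whereas non-classical chains of the Q, T and M regions are less variable and several of them are read by NK cells or by unconventional T cells.

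RefSeq promoter windows on GRCm38.p6 could be matched to 25 of the 32 genes, and the 250 bases before each start were searched on both strands for 5 motifs known from class I promoters. The ISRE, the element bound by interferon-activated complexes, was searched as GAAA, any 2 bases and GAAA again, and stood in 3 of the 25 genes (B2m, H2-T22 and H2-T23), against 2.98% of all 32851 mouse promoter windows. The GAS element, written TTCNNNGAA, was in 2 (H2-M3 and Psmb8), against 7.02% of windows. The X2 box core, written TGACGNNA, was in 4 (H2-Q4, Psmb9, Psme2 and Tap1), against 5.66%. The windows of Psmb9 and Tap1 overlap, and their X2 box matches are the same bases, so that site is counted for both genes. The same holds for their reverse CCAAT box. The reverse CCAAT box, written ATTGG, was in 17, against 33.8%, and a kappaB motif, GGG and CC with any 5 bases between them, in 18, against 45.8%. H2-T10, H2-T24, Nlrc5, Tap2, Tapbpl, Sec61a1 and Cd1d1 were not searched. None of the 3 ISRE matches overlapped a match to another of these motifs. The windows of the 3 genes with an ISRE match are printed. Of these 3 genes, only H2-T22 differed between the groups, while H2-T23 and B2m did not pass the test. A window of H2-K1, a classical chain without a match to these exact ISRE letters, is set beside these windows. Capitals mark matches to the ISRE and to the reverse CCAAT box on either strand. H2-T22 is chr17:36042743-36042992 on the minus strand, with its ISRE beginning 191 bases before the start. H2-T23 is chr17:36032702-36032951 on the minus strand, with the ISRE beginning 124 bases before the start. B2m is chr2:122147437-122147686 on the plus strand, with the ISRE beginning 139 bases before the start. For H2-K1, which has 2 windows in the table, the one given is chr17:34000348-34000597 on the minus strand. These matches are letters in a window and not sites shown to be used. Only the exact letters were searched, so a window without a match may still hold a variant of the element.
H2-T22: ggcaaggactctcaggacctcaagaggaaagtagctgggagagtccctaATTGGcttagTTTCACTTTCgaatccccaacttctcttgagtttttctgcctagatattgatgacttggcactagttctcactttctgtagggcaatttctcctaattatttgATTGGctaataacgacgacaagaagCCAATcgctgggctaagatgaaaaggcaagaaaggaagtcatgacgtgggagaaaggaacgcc
H2-T23: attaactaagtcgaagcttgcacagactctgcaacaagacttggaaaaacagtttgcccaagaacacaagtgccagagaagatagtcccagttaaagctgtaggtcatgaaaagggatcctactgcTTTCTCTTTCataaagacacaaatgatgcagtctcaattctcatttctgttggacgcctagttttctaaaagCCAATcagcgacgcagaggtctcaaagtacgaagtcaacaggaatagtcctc
B2m: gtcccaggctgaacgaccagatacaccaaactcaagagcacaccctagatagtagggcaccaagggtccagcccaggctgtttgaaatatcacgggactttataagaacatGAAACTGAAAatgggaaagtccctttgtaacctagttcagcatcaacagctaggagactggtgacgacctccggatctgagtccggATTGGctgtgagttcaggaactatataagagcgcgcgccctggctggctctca
H2-K1: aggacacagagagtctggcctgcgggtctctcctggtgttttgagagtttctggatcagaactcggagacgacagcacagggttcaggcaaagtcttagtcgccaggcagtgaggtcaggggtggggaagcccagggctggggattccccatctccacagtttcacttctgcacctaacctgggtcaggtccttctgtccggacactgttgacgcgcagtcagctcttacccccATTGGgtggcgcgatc

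The libraries held 33159858 to 46108687 counts, of which the 32 genes took 2.14% to 2.74%. Of 13588 genes tested, 438 (3.22%) differed, 251 (1.85%) higher and 187 (1.38%) lower in anti-MerTK macrophages, at an adjusted p under 0.05 by edgeR's quasi-likelihood test. Values in CPM are read counts scaled to the size of the library. Mertk, the antibody's target, had 78.9 ± 4.96 CPM in anti-MerTK macrophages and 91.1 ± 14.3 CPM in anti-gp120 macrophages (SD, n = 5 each; log2 fold change -0.21, adjusted p 0.263). The antibody binds the protein, so the transcript does not check the labels. Macrophage markers were at high levels, with a summed 20028 to 21690 CPM over 9 markers in anti-MerTK libraries and 18311 to 22361 CPM in anti-gp120 libraries. Of these 9, Fcgr1 was higher (log2 fold change 0.64 ± 0.13, SE).

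Among the 32 genes, 3 non-classical heavy chains rose in anti-MerTK macrophages, H2-T24 by 2.11-fold, and H2-T10 and H2-T22 by 0.59 and 0.58 on the log2 scale. None passed the edgeR test as lower, while DESeq2 and limma-voom each called 4 of the 32 higher and 1 lower. Over all genes DESeq2 called 8.96% of those it gave an adjusted p and limma-voom 7.62% of those tested. The classical chains and B2m did not pass it, with log2 fold changes of 0.06 to 0.09. In all, 23 of the 32 estimates were positive, against 49% of all tested genes, and the median log2 fold change was 0.14, against -0.01 over all tested genes. At an unadjusted p under 0.05, which 20.9% of all tested genes reached, there were 13 of the 32. Of these, 3 had lower estimates, Mr1, Erap1 and Lnpep, all short of the adjusted threshold in edgeR. The groups did not overlap for 4 of the 32 genes, H2-T24, H2-T22, Mr1 and Erap1, as for 5.97% of all tested genes. In bulk RNA, a changed level per cell and a changed number of cells of a type cannot be told apart.

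**Figure D1:**
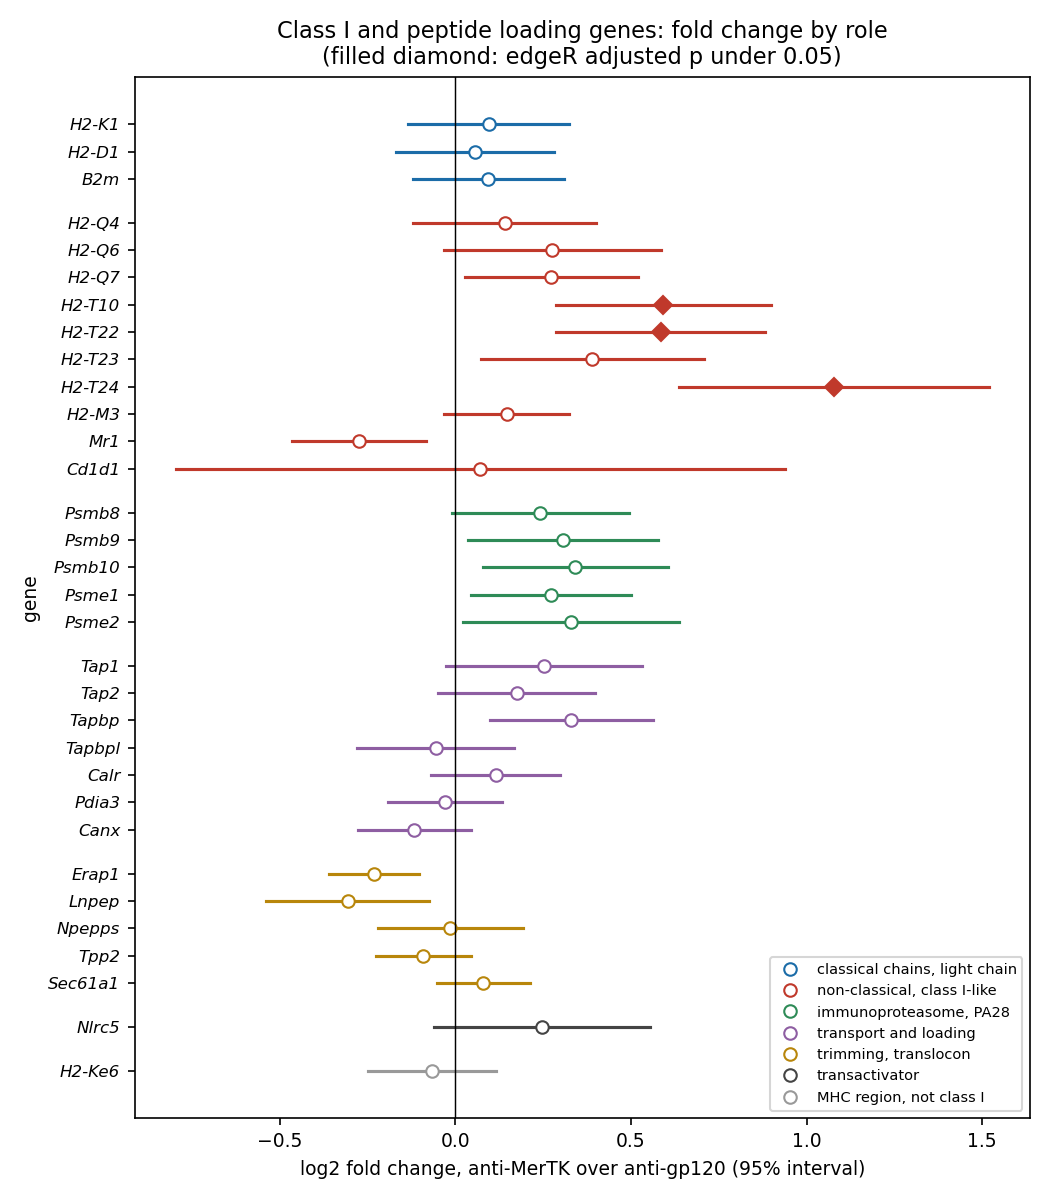
Log2 fold change of anti-MerTK over anti-gp120 macrophages (x axis) for each of the 32 genes (y axis), grouped by role, as estimate and 95% interval from edgeR over 5 libraries each. Filled diamonds mark H2-T10, H2-T22 and H2-T24, the 3 genes with an adjusted p under 0.05, and the 3 classical entries sit near 0.

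Transcript levels per gene length spanned a wide range. In RPKM, read counts scaled by the authors to gene length and library size, B2m was highest, at 9251 ± 848 in anti-MerTK macrophages and 8665 ± 928 in anti-gp120 macrophages (SD, n = 5 each here and below). H2-D1 followed with 2218 ± 139 RPKM in anti-MerTK and 2133 ± 314 RPKM in anti-gp120 macrophages, and H2-K1 with 1522 ± 147 RPKM in anti-MerTK and 1425 ± 192 RPKM in anti-gp120 macrophages. The non-classical chains lay far below, led by H2-T23 with 309.9 ± 40.8 RPKM in anti-MerTK and 236 ± 53.1 RPKM in anti-gp120 macrophages. The 3 chains that rose were less abundant still. The RPKM of chains that share sequence with other genes may be too low, because only unique alignments were counted. H2-T22 averaged 62.8 RPKM in anti-MerTK and 41.9 RPKM in anti-gp120 macrophages. H2-T10 averaged 35.3 RPKM in anti-MerTK and 23.4 RPKM in anti-gp120 macrophages. The lowest of the set was Cd1d1, with 1.18 ± 0.794 RPKM in anti-MerTK and 1.13 ± 0.213 RPKM in anti-gp120 macrophages.

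**Figure D2:**
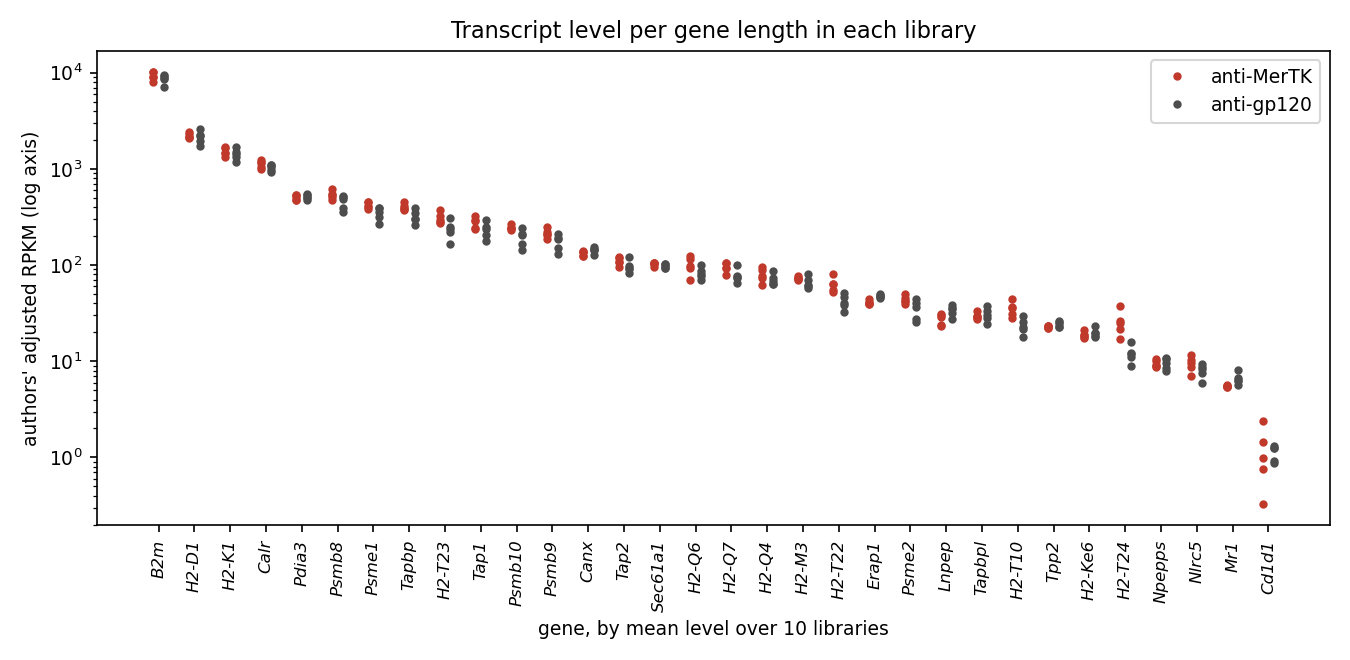
The authors' RPKM (y axis, log scale) of each of the 32 genes (x axis, ordered by mean over all 10 libraries), with a point per library, anti-MerTK left of anti-gp120. B2m, H2-D1 and H2-K1 lead, and the chains that rose, H2-T22, H2-T10 and H2-T24, lie in the lower part of the order.

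The classical chains were H2-K1 (Entrez 14972, chr17:33996012-34000619 on GRCm38.p6) and H2-D1 (Entrez 14964, chr17:35263094-35267497), which share the light chain B2m (Entrez 12010, chr2:122147687-122153082). H2-K1 had 3155, 3688, 3185, 3583 and 2892 CPM in the anti-MerTK libraries, against 2904, 2571, 3226, 3103 and 3656 CPM in the anti-gp120 libraries. H2-D1 had 3671, 4208, 3711, 3974 and 3611 CPM in the anti-MerTK libraries, against 3356, 3051, 3759, 3851 and 4436 CPM in the anti-gp120 libraries. For both chains the groups overlapped, and anti-gp120 replicate 5 stood among the highest of the 10 libraries. B2m had 6874, 8614, 7682, 8651 and 7708 CPM in the anti-MerTK libraries, against 7393, 6195, 7848, 7447 and 8164 CPM in the anti-gp120 libraries, and overlapped too. The log2 fold changes had 95% intervals of -0.14 to 0.32 for H2-K1, -0.17 to 0.28 for H2-D1 and -0.12 to 0.31 for B2m, with edgeR adjusted p of 0.648, 0.794 and 0.626. None of the 3 passed at an unadjusted p under 0.05, and DESeq2 and limma-voom called none of them.

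H2-T24 (Entrez 15042, chr17:36003471-36020800), a heavy chain of the T region, had the largest estimate of the 32. Its values were 73.0, 105, 60.0, 70.6 and 47.3 CPM in the anti-MerTK libraries, against 34.4, 25.4, 30.9, 33.3 and 44.1 CPM in the anti-gp120 libraries. Every anti-MerTK library lay above every anti-gp120 library, as did 3.26% of all tested genes. The log2 fold change was 1.08 ± 0.20 (SE, 95% interval 0.64 to 1.52), with an adjusted p of 0.0220 in edgeR. That p was 0.0599 when anti-MerTK replicate 1 was left out, 0.0574 when anti-gp120 replicate 2 was and 0.0719 when anti-gp120 replicate 4 was, while the log2 fold change stayed at 0.90 or more without any single library.

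H2-T22 (Entrez 15039, chr17:36037128-36042742) and H2-T10 (Entrez 15024, chr17:36115871-36121444) encode closely related chains that bind no peptide and are ligands of a subset of gamma-delta T cells in mice. H2-T22 had 224, 286, 194, 229.8 and 185 CPM in the anti-MerTK libraries, against 144, 118, 163, 137 and 184 CPM in the anti-gp120 libraries. The groups did not overlap, but the lowest anti-MerTK library and the highest anti-gp120 library were nearly level. H2-T10 had 204, 251, 172, 201 and 158 CPM in the anti-MerTK libraries, against 127, 102, 140.4, 121 and 163 CPM in the anti-gp120 libraries, and here anti-MerTK replicate 5 lay within the range of the anti-gp120 libraries. The log2 fold changes were 0.58 ± 0.14 for H2-T22 (SE, 95% interval 0.29 to 0.88, adjusted p 0.0434 in edgeR) and 0.59 ± 0.14 for H2-T10 (0.29 to 0.90, adjusted p 0.0446). Both calls held in only 2 of the 10 fits that left out a library, those without anti-MerTK replicate 5 or anti-gp120 replicate 5, and in the other 8 the adjusted p reached 0.121 for H2-T22 and 0.125 for H2-T10. The genes also share sequence, so they may not be independent measurements. Of 50-base windows in their longest GENCODE M21 transcripts, 32% of those of H2-T22 also stand in H2-T10, and 30.3% of those of H2-T10 in H2-T22. Since only unique alignments were counted, reads that match both genes equally are left out of both, and each level is uncertain. For H2-T24 the share of such windows found in any other gene was 3.23%.

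The other non-classical chains had positive estimates short of the threshold. H2-T23, which encodes Qa-1, the mouse ligand of the inhibitory NK receptor CD94/NKG2A, lies between H2-T24 and H2-T22 at chr17:36029977-36032701. It had 468, 599, 452, 525 and 437 CPM in the anti-MerTK libraries, against 384, 266, 399, 348 and 496 CPM in the anti-gp120 libraries. Its log2 fold change was 0.39 ± 0.15 (SE, adjusted p 0.154 in edgeR), and anti-gp120 replicate 5 lay above 3 of the anti-MerTK libraries. The Qa-2 genes H2-Q7 and H2-Q6 had log2 fold changes of 0.27 ± 0.11 (adjusted p 0.192) and 0.28 ± 0.14 (adjusted p 0.287), and H2-Q4 one of 0.14 ± 0.12 (adjusted p 0.533). The Q genes share 22% to 32% of their windows with other genes, so each single value is uncertain. H2-M3, which presents formylated peptides, had 98.0 to 109 CPM in anti-MerTK and 83.3 to 112 CPM in anti-gp120 libraries (log2 fold change 0.15 ± 0.08, adjusted p 0.331). All 10 heavy chains of the H2 family thus had positive estimates, against 49% of all tested genes, with a median log2 fold change of 0.27. Of the 10, 3 passed the test as higher, against 1.85% of all tested genes. The chains are not separate observations, because the same libraries were high or low for most of them. Several also share windows.

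Both class I-like molecules lie outside the MHC. Mr1, which presents vitamin B metabolites to MAIT cells, had 16.9, 17.2, 17.0, 17.2 and 17.5 CPM in the anti-MerTK libraries, against 17.7, 19.9, 25.4, 20.9 and 19.9 CPM in the anti-gp120 libraries. All anti-MerTK libraries lay below all anti-gp120 libraries, as for 2.71% of tested genes, but the log2 fold change of -0.28 ± 0.09 (SE) had an adjusted p of 0.104 in edgeR. Cd1d1, which presents lipids to NKT cells, was the lowest of the set, with 0.679 to 4.90 CPM in the anti-MerTK libraries and 1.79 to 2.76 CPM in the anti-gp120 libraries. Its 95% interval ran from -0.80 to 0.94 on the log2 scale, with a wide spread between the anti-MerTK libraries, and no difference was detected. Of its windows, 25.8% also stand in Cd1d2.

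**Figure D3:**
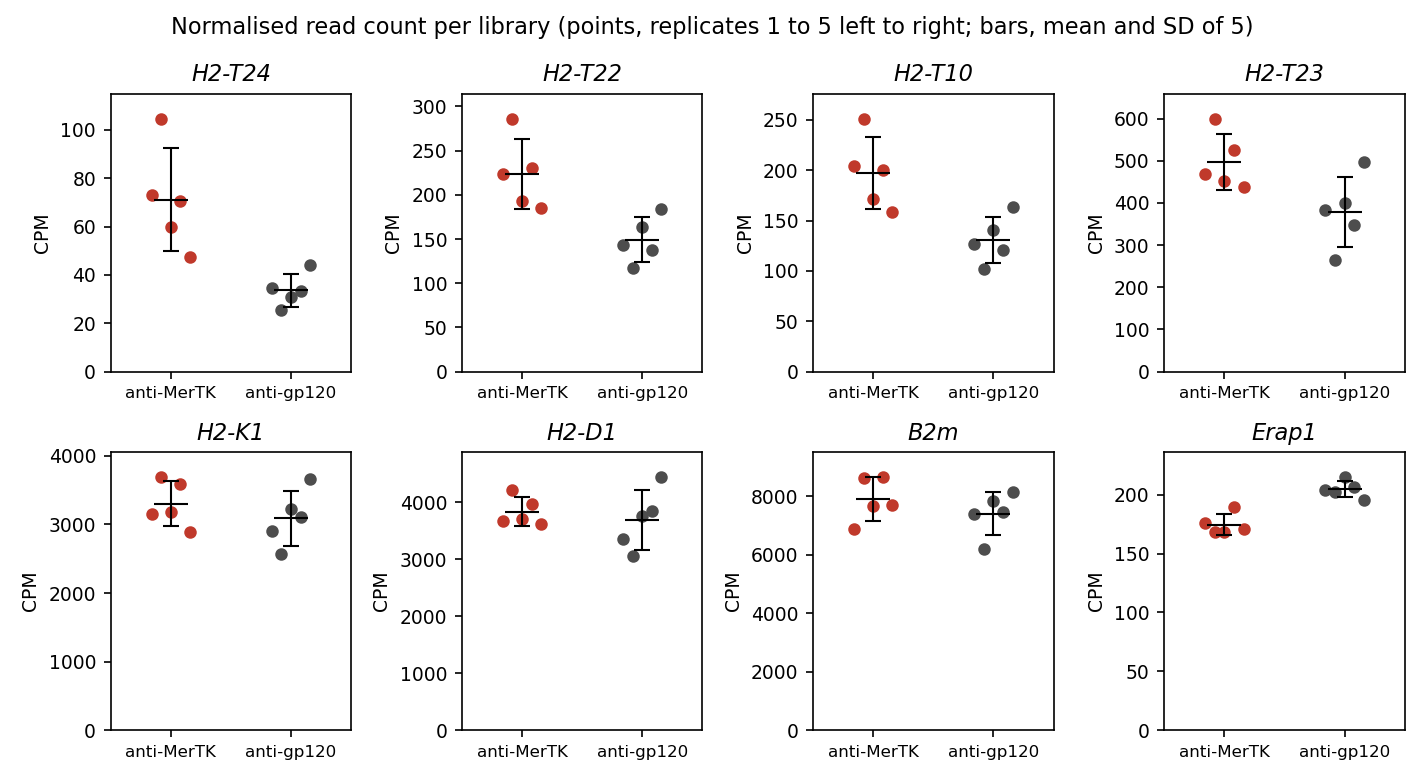
Normalised read count (y axis, CPM from 0) in each library of 8 of the genes, anti-MerTK left of anti-gp120, with points for replicates 1 to 5 and bars for the mean and SD of 5. The groups are apart for H2-T24, H2-T22 and Erap1 and overlap for H2-T10, H2-T23, H2-K1, H2-D1 and B2m.

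The share of H2-K1 and H2-D1 in the summed RPKM of the 10 heavy chains was lower in anti-MerTK macrophages. It was 82.6%, 81.5%, 83.3%, 82.5% and 84.1% in the anti-MerTK libraries, against 84.7%, 85.8%, 85.1%, 86.3% and 84.8% in the anti-gp120 libraries. The groups did not overlap, with a mean of 82.8% ± 0.949 in anti-MerTK macrophages and 85.4% ± 0.706 in anti-gp120 macrophages (SD, n = 5 each). Without the 3 chains that rose, the share was 84.2% to 86.1% in anti-MerTK libraries and 86.4% to 87.8% in anti-gp120 libraries, still apart. These shares were looked at after the values of the chains were known, and they carry no test. Their level is uncertain, because only unique alignments were counted. Windows shared with other genes were 8.11% for H2-K1 and 14.3% for H2-D1. Among the non-classical chains they ran from 0.576% for H2-M3 to 35.8% for H2-T22.

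The immunoproteasome replaces the catalytic subunits of the standard proteasome with Psmb8, Psmb9 and Psmb10, and Psme1 and Psme2 form the PA28 cap that widens its gate. All 5 had positive estimates, as did 49% of all tested genes, with log2 fold changes of 0.24 to 0.34. Their edgeR adjusted p were 0.135 to 0.256, so none passed the test. An unadjusted p under 0.05 was reached by 4 of the 5, against 20.9% of all tested genes. Psmb10 (Entrez 19171) had 378, 416, 373, 379.6 and 356 CPM in the anti-MerTK libraries, against 329, 226, 318, 254 and 375 CPM in the anti-gp120 libraries. Psme1 (Entrez 19186) had 368, 440.1, 388, 438 and 396 CPM in the anti-MerTK libraries, against 350.1, 265, 381, 303 and 381 CPM in the anti-gp120 libraries. In both, the anti-MerTK libraries were the tighter group and anti-gp120 replicates 2 and 4 the low ones. Psmb8 had 712 ± 75.6 CPM in anti-MerTK and 602 ± 97.2 CPM in anti-gp120 macrophages, Psmb9 356 ± 39.6 CPM in anti-MerTK and 288 ± 52.9 CPM in anti-gp120 macrophages, and Psme2 75.2 ± 7.11 CPM in anti-MerTK and 59.9 ± 13.7 CPM in anti-gp120 macrophages. For each of the 5, all anti-MerTK libraries lay above the anti-gp120 mean, as they did for the standard subunits Psmb5, Psmb6 and Psmb7. Psmb10 was called by limma-voom (adjusted p 0.0487), and DESeq2 called none of the 5. For Psme2, 59.3% of windows also stand in Psme2b, so its counts are uncertain.

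Whether the immunoproteasome subunits moved apart from the standard ones was read from ratios within a library, which do not depend on library scaling. Psmb8 over Psmb5 was 18.5 ± 1.92 in anti-MerTK macrophages and 18.4 ± 2.36 in anti-gp120 macrophages, a log2 difference of 0.01. The size of this ratio rests on a low Psmb5 level, 26.9 RPKM over all libraries, against 155 for Psmb6 and 145 for Psmb7. Sequence that Psmb5 shares with other genes was not checked, so the size is uncertain and is no measure of protein. Psmb9 over Psmb6 was 1.29 ± 0.179 in anti-MerTK and 1.22 ± 0.120 in anti-gp120 macrophages, and Psmb10 over Psmb7 was 1.57 ± 0.0945 in anti-MerTK and 1.44 ± 0.246 in anti-gp120 macrophages. By two-sided exact permutation tests over 252 assignments, whose smallest p is 0.00794, p was 0.929, 0.516 and 0.238 for these, and 0.937 for each after adjustment over the 5 ratios tested. The standard subunits had log2 fold changes of 0.24 for Psmb5, 0.24 for Psmb6 and 0.22 for Psmb7, beside 0.24 for Psmb8, 0.31 for Psmb9 and 0.34 for Psmb10, and missed the threshold too (edgeR adjusted p 0.101 to 0.134). Heavy over light chain was read in the same way. H2-K1 over B2m was 0.165 ± 0.0119 in anti-MerTK and 0.164 ± 0.00782 in anti-gp120 macrophages, and H2-D1 over B2m 0.241 ± 0.0143 in anti-MerTK and 0.246 ± 0.0170 in anti-gp120 macrophages (exact permutation p 0.937 and 0.635). These p-values do not show that the ratios are the same.

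**Figure D4:**
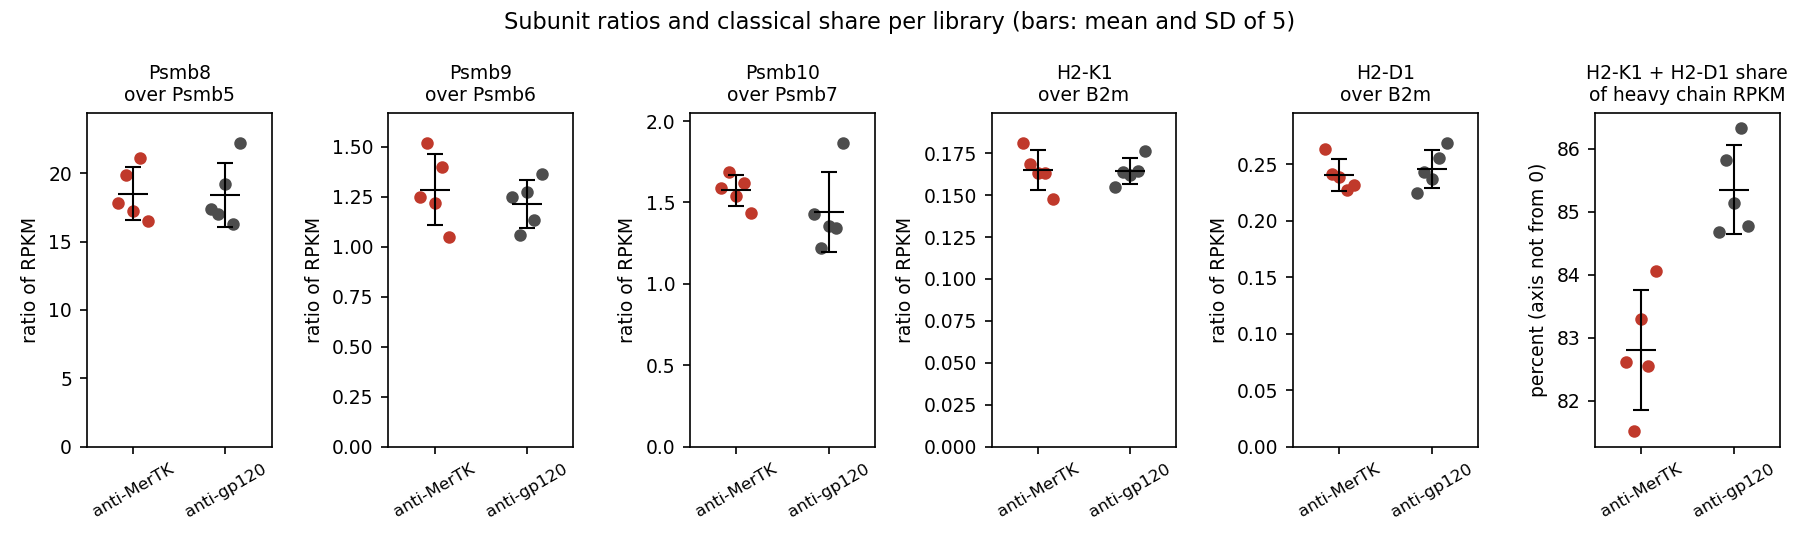
Ratios of RPKM within a library (y axes from 0) for 3 pairs of immunoproteasome over standard subunit and for both classical chains over B2m, and the share of H2-K1 and H2-D1 in heavy chain RPKM (last panel, axis not from 0), anti-MerTK left of anti-gp120, with points for libraries and bars for the mean and SD of 5. The ratios overlap between groups, and the share is 81.5% to 84.1% in anti-MerTK libraries, below the 84.7% to 86.3% of anti-gp120 libraries.

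Among the transport and loading genes none passed the test, and 1 of 7, Tapbp, had an unadjusted p under 0.05. Of all tested genes, 20.9% did. Tapbp (Entrez 21356), tapasin, which bridges TAP and the empty heavy chain, had 1070.0, 1236, 1029, 1142 and 1051 CPM in the anti-MerTK libraries, against 945, 725, 815, 828 and 1085 CPM in the anti-gp120 libraries. Only anti-gp120 replicate 5 reached into the anti-MerTK range. Its log2 fold change was 0.33 ± 0.11 (SE, 95% interval 0.10 to 0.56, adjusted p 0.106 in edgeR), and it was called by DESeq2 (adjusted p 0.0368), while limma-voom called none of the 7. Tap1 (Entrez 21354), a subunit of the peptide transporter, had 861, 946, 716, 837 and 697 CPM in the anti-MerTK libraries, against 732, 531, 688, 601 and 856 CPM in the anti-gp120 libraries. The groups overlapped, and the log2 fold change was 0.25 ± 0.13 (adjusted p 0.283), beside 0.17 ± 0.10 for Tap2, the other subunit. Tap1 lies head to head with Psmb9, with 225 bases between the annotated genes, and Psmb9 had a log2 fold change of 0.31 ± 0.12. The chaperones Calr, Pdia3 and Canx, which fold many glycoproteins besides class I, had small estimates. Calr had 2154 ± 175 CPM in anti-MerTK and 1990.3 ± 151 CPM in anti-gp120 macrophages (log2 fold change 0.11). Pdia3 had 1327 ± 90.6 CPM in anti-MerTK and 1355 ± 72.5 CPM in anti-gp120 macrophages (-0.03), and Canx 565 ± 35.2 CPM in anti-MerTK and 612 ± 43.1 CPM in anti-gp120 macrophages (-0.12). For Tapbpl, a tapasin-related peptide editor, the values were 73.9 ± 5.40 CPM in anti-MerTK and 76.9 ± 12.5 CPM in anti-gp120 macrophages (-0.06). Their edgeR adjusted p were 0.390 to 0.850.

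Of the 5 trimming and translocation genes, 4 had negative estimates, and the median log2 fold change was -0.09. Erap1 (Entrez 80898, chr13:74639573-74693205), the aminopeptidase that trims peptides in the endoplasmic reticulum, had 176, 168, 168, 189 and 171 CPM in the anti-MerTK libraries, against 204, 202, 215, 207 and 196 CPM in the anti-gp120 libraries. All anti-MerTK libraries lay below all anti-gp120 libraries, by a small margin relative to the level. The log2 fold change was -0.23 ± 0.06 (SE, 95% interval -0.36 to -0.10), with an adjusted p of 0.0541 in edgeR. DESeq2 (adjusted p 0.00197) and limma-voom (adjusted p 0.0353) called it lower. Lnpep (Entrez 240028), an endosomal aminopeptidase linked to cross-presentation, had 149, 159.7, 119.8, 155 and 123 CPM in the anti-MerTK libraries, against 143, 184, 164, 199.8 and 185 CPM in the anti-gp120 libraries. Here the groups overlapped through anti-gp120 replicate 1, and the log2 fold change was -0.31 ± 0.11 (adjusted p 0.129). The cytosolic peptidase Tpp2 had 107 ± 2.86 CPM in anti-MerTK and 114 ± 8.47 CPM in anti-gp120 macrophages (log2 fold change -0.09), and Npepps 44.1 ± 3.38 CPM in anti-MerTK and 44.6 ± 6.15 CPM in anti-gp120 macrophages (-0.01). Sec61a1, the channel of the translocon, had 312 ± 11.9 CPM in anti-MerTK and 296 ± 13.2 CPM in anti-gp120 macrophages (0.08).

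Nlrc5 (Entrez 434341), the class I transactivator, had 74.5, 90.1, 68.1, 80.6 and 55.1 CPM in the anti-MerTK libraries, against 64.3, 59.7, 46.0, 68.0 and 72.5 CPM in the anti-gp120 libraries. The groups overlapped, with anti-MerTK replicate 5 below 4 of the anti-gp120 libraries, and the log2 fold change was 0.25 ± 0.14 (SE, adjusted p 0.339 in edgeR). H2-Ke6 had 18.1 ± 1.37 CPM in anti-MerTK and 19.0 ± 1.90 CPM in anti-gp120 macrophages, a log2 fold change of -0.07, and 96.3% of its windows are shared with the predicted gene Gm20427.

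A further 45 genes of the class I pathway in the tables, among them factors that drive its transcription, other heavy chains, chaperones and cytosolic peptidases, held 41 that could be tested. Of the 41, 1 was higher and 0 were lower at the adjusted threshold, 9 had an unadjusted p under 0.05, and the median log2 fold change was 0.03. Both counts are near the shares over all tested genes, 3.22% and 20.9%. The gene that rose was Stat2 (Entrez 20847), a subunit of the interferon-activated complex that binds the ISRE. It had 119, 205, 113, 129 and 59.3 CPM in the anti-MerTK libraries, against 60.9, 38.8, 50.3, 55.2 and 67.8 CPM in the anti-gp120 libraries. Of the anti-MerTK libraries, only replicate 5 lay within the anti-gp120 range, and the log2 fold change was 1.19 ± 0.27 (SE, adjusted p 0.0452 in edgeR). Leaving out a library gave adjusted p of 0.00867 to 0.126, and the call held in 2 of 10 such fits. Irf9, a partner in that complex picked here after its values were seen, had a log2 fold change of 0.31 ± 0.08 (SE, adjusted p 0.0541 in edgeR). DESeq2 called 5 of the 41 and limma-voom 4, beside 8.96% and 7.62% of all genes.

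Within a group, the same libraries were high or low for many of the genes. In the anti-MerTK group, replicate 2 had the highest value of 19 of the 32 genes and of 9 of the 10 heavy chains, and replicate 5 the lowest of 16 genes and of all 10 heavy chains. In the anti-gp120 group, replicate 5 was highest for 19 genes and 9 heavy chains, and replicate 2 lowest for 20 genes and 9 heavy chains. Of all tested genes, 27.1% were highest in anti-MerTK replicate 2 and 30.7% lowest in anti-MerTK replicate 5 within their group, and 20.2% were highest in anti-gp120 replicate 5 and 19.8% lowest in anti-gp120 replicate 2. Anti-MerTK replicate 4 lay above its group's mean for 28 of the 32 genes and anti-gp120 replicate 2 for 6, whereas 48% to 53.1% of all tested genes lay above the mean of their own group in any library. Leaving out anti-MerTK replicate 5 gave 3 genes called higher among the 32, and leaving out anti-gp120 replicate 5 gave 5. Leaving out anti-MerTK replicate 1, anti-gp120 replicate 2 or anti-gp120 replicate 4 gave 0, and the other 5 fits gave only H2-T24.

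**Figure D5:**
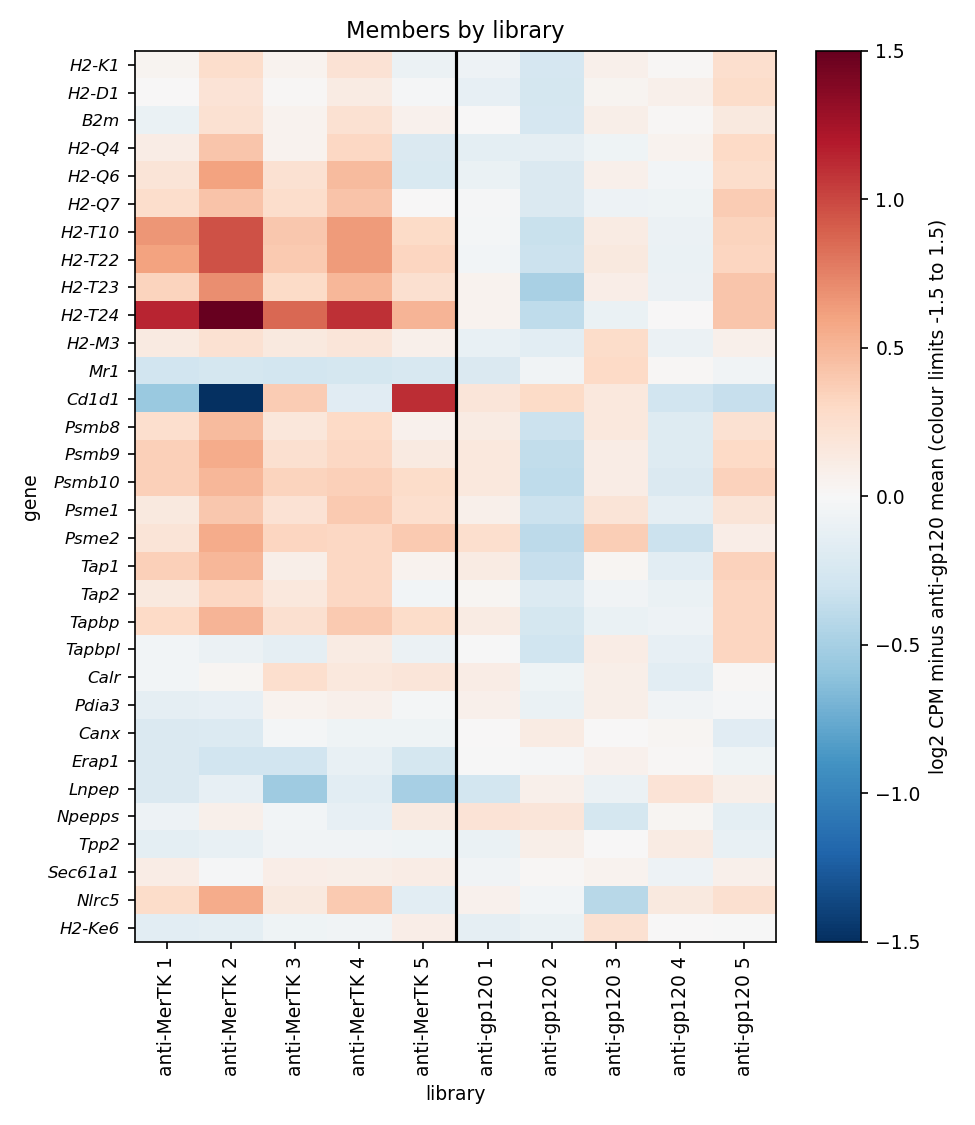
Log2 CPM of each of the 32 genes (rows) in each library (columns, anti-MerTK left of anti-gp120) relative to the anti-gp120 mean, red higher and blue lower, on a capped colour scale. Anti-MerTK replicate 2 is the reddest column, and within anti-gp120 replicate 5 is red and replicate 2 blue for most heavy chain and proteasome genes.

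Nearly all nucleated cells carry class I transcripts, so markers of other cells are given beside these results. Summed monocyte markers (9 of 9 detected) were 384 to 646 CPM in anti-MerTK libraries and 162 to 457 CPM in anti-gp120 libraries, and 1 of them, Plac8, was higher, with 71.4 CPM in anti-MerTK and 13.8 CPM in anti-gp120 macrophages on average (log2 fold change 2.37 ± 0.50, SE). With a monocyte marker score as a covariate, the log2 fold changes were 1.20 for H2-T24, 0.73 for H2-T22 and 0.73 for H2-T10, larger than without it, but the edgeR adjusted p became 0.0867, 0.0975 and 0.106, and 19 of all genes were called in place of 438. Dendritic cell markers summed to 51.7 to 94.7 CPM in anti-MerTK libraries and 27.3 to 66.3 CPM in anti-gp120 libraries, and their part in the results was not tested. Epithelial tumour cell markers summed to 25.8 to 34.2 CPM in anti-MerTK libraries and 36.0 to 59.9 CPM in anti-gp120 libraries, nearly all of it Cdh1, the 1 marker called lower, and this too was not tested. Markers of T cells summed to 2.44 to 10.2 CPM in anti-MerTK libraries and 6.70 to 13.2 CPM in anti-gp120 libraries, and those of NK cells to 0.115 to 0.864 CPM in anti-MerTK libraries and 0.122 to 1.04 CPM in anti-gp120 libraries. The defining T cell gene Cd3e averaged 0.0847 CPM in anti-MerTK and 0.0784 CPM in anti-gp120 macrophages. Neutrophil markers summed to 65.2 to 88.1 CPM in anti-MerTK libraries and 60.6 to 104 CPM in anti-gp120 libraries, and B cell markers to 17.6 to 30.5 CPM in anti-MerTK libraries and 19.8 to 40.2 CPM in anti-gp120 libraries. The fibroblast sum was 6.26 to 41.1 CPM in anti-MerTK libraries and 7.17 to 29.5 CPM in anti-gp120 libraries, and the endothelial sum 69.9 to 119 CPM in anti-MerTK libraries and 82.3 to 131 CPM in anti-gp120 libraries. Of the NK cell markers 0 passed the filter on low counts, and of the T cell markers only 1, Cd4. No tested marker of these 6 cell types passed the threshold in edgeR, which for NK cells says nothing. The part of these cell types in the results was not tested.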

How the data were processed

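RNA-seq of polyadenylated RNA gave 5 anti-MerTK and 5 anti-gp120 libraries, grouped by the treatment in the labels; replicate numbers follow deposition order and pair nothing. Reads were aligned with GSNAP to GRCm38, per the submitters' processing notes. For the aligner version, annotation, counting tool and strand setting, the record is: not given in the sources used here. Hence overlapping and antisense genes may share reads. The deposited counts hold uniquely aligned reads per gene model, according to the headers, and were made by the authors. The deposited RPKM carry a library-wise size factor that the authors applied, again according to the headers. Entrez identifiers were named from RefSeq for GRCm38.p6, which also gave coordinates and promoters.

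The 32 genes and all gene lists were chosen with earlier results of these data known. Counts were tested with edgeR 4.0.16 (limma 3.58.1, R 4.3.3): filterByExpr, TMM, robust quasi-likelihood, treatment as the only term, and two-sided p-values adjusted by Benjamini-Hochberg over 13588 genes, with a threshold of 0.05. CPM use TMM library sizes. The SE is the log2 fold change over the root of F, and is approximate; 95% intervals use the fit's degrees of freedom. The common dispersion had a square root of 0.159. No pair of libraries agreed within sampling noise (smallest chi-square per degree of freedom 27.2). On simulated counts for this comparison (13588 genes, 3 runs, 200 changed genes), 63% of 1.5-fold and 92.3% of 2-fold changes were recovered and 5.86% of calls were false. The changed genes were taken from those of at least 2 CPM, and each gene was drawn on its own. Variation that genes of a library share was thus absent, so these rates may not hold for the real libraries. Ratios of RPKM were compared by exact permutation with scipy 1.17.1 (Python 3.11.15). The genes given in full are those past the threshold, H2-K1, H2-D1, B2m, and the 2 of smallest p per role, H2-Ke6 having no role; H2-T23 and Mr1 are given in full too, chosen after their values were seen. Alternatives were RLE, upper quartile and the authors' size factors, no filter, 5 CPM in 5 libraries, DESeq2 1.42.0, limma-voom with quality weights, 1 surrogate variable (sva 3.50.0), a monocyte score, 8 libraries, each library left out, and an adjusted p under 0.01. Of the listed pathway and marker genes, H2-Bl, Ide and Trac were not analysed here.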

Additional observations from a re-analysis of the deposited data

Results flagged for a closer look

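Within each group of 5 libraries, the library farthest out was set against the others for each of the 32 genes, 64 groups in all, and chance alone marks about 1 in 20. In 2 cases a library stood apart. Sec61a1, the translocon channel, had 291 CPM in anti-MerTK replicate 2, while the other anti-MerTK libraries had 314 to 320.0 CPM. H2-Q7, a Qa-2 gene, had 172 CPM in anti-gp120 replicate 5, while the other anti-gp120 libraries had 113 to 130.1 CPM. Without that library the log2 fold change of H2-Q7 was 0.38, with an edgeR adjusted p of 0.0448.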

How the results depend on the processing

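Of 679 comparisons of a single gene under an alternative, 618 kept their direction and side of the threshold, 35 lost the call, 8 gained it and 18 changed sign. The number of the 32 genes called higher was 1 with 8 libraries (without anti-MerTK replicates 2 and 5), 0 with the monocyte score and 0 at an adjusted p under 0.01, and 0 to 5 when each library was left out. With 8 libraries the adjusted p was 0.0740 for H2-T22 and 0.0678 for H2-T10, and with no filter that of H2-T10 was 0.0529. The number called lower was 1, Erap1, with 1 surrogate variable, 5 CPM in 5 libraries, DESeq2 and limma-voom. Over all genes, 438 calls became 204 with 8 libraries, 1146 with DESeq2, 1036 with limma-voom, 19 with the monocyte score, 15 at an adjusted p under 0.01, and 70 to 654 without a library. The other pathway genes had 3 calls with 1 surrogate variable, 3 with 5 CPM in 5 libraries, 5 with DESeq2, 4 with limma-voom, 0 with the monocyte score, 0 with no filter, 0 at an adjusted p under 0.01, and 0 to 3 without a library. The causes were not tested. Changes of sign concerned genes near 0. Cd1d1 became -0.085 with 8 libraries, -0.10 with limma-voom, -0.25 with the monocyte score and -0.34 to 0.30 without a library. Tapbpl became 0.026 with the monocyte score and -0.13 to 0.031 without a library. Pdia3 became 0.0024 with 8 libraries, 3.7e-05 with limma-voom and 0.018 with the monocyte score. Npepps became 0.017 with 1 surrogate variable, 0.00019 with upper quartile scaling and -0.072 to 0.037 without a library, and H2-D1 was -0.010 to 0.13 without a library. Log2 ratio differences without a library were -0.040 to 0.079 for Psmb8 over Psmb5, -0.031 to 0.042 for H2-K1 over B2m and -0.064 to 0.0029 for H2-D1 over B2m. Cd1d1 was not tested under 5 CPM in 5 libraries. No paired analysis was possible because the labels give no replicate numbers. Cd1d1, the gene of fewest counts among the 32, had the widest interval.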
